A study of Cricetulus griseus with 24 samples.

Results

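A set of 40 genes, of 26776 gene names counted, was close to lost in phagocytes deficient in Slc12a2, which encodes a cotransporter of sodium, potassium and chloride. The 40 genes had a mean of at least 2 CPM (counts scaled to a fixed library total) in 4 wildtype libraries and at most one eighth of that mean in 4 deficient libraries. Of the 11070 genes that reached 2 CPM in wildtype, 50 met both criteria, which is 0.452%, and 10 of them were left out by name (Bgn, Il11, Nppb, Pcdh12, Postn, Slc14a2, Slco4a1, Sulf2, Unc5b and Unc5c). Since the genes were selected on the mean CPM of these 8 libraries of the 2 genotypes, their levels there are described here without a test. The same rule turned around, with wildtype at most one eighth of deficient, was met by 8 genes.

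The phagocytes were LR73, a hamster line labelled as fibroblasts, and their targets came from Jurkat, a T lymphocyte line of human origin, treated with 1500 mJ of ultraviolet C light and then cultured for 4 h. In the second experiment, wildtype (Slc12a2-sufficient) and Slc12a2-deficient phagocytes met these apoptotic cells for 2 h, and cells carrying CypHer5E, a dye that brightens in acid compartments and so marks engulfed targets, were sorted. The first experiment had 4 groups of unsorted LR73 phagocytes, namely alone (control), with cytochalasin D, with apoptotic cells, and with apoptotic cells and cytochalasin D, an inhibitor of actin filament growth. Each of the 6 groups had 4 libraries, described as biological replicates. All phagocytes of the second experiment had met apoptotic cells, so the genotypes were not compared in resting cells. The sources used here give neither the way Slc12a2 was removed, nor whether the deficient cells came from 1 clone, nor how long co-culture lasted in the first experiment.

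The 2 genes that label the set are both anchored to the cell surface by a glycosylphosphatidylinositol (GPI) lipid. Ly6e belongs to the LY6 and uPAR family of small surface proteins and is known as a gene induced by interferon and as a factor that acts on virus entry. Tdgf1 encodes CRIPTO, the co-receptor through which NODAL and related ligands of the TGF-beta family reach activin receptors, and it is best known from early embryos and from tumours. The other genes include hormone receptors, epidermal proteins and a cytokine receptor of lymphocytes, which are best known from tissues other than fibroblasts.

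Slc12a2 itself had a mean of 96.2 ± 4.77 CPM (SD, n = 4) in wildtype and 24.1 ± 1.36 CPM (SD, n = 4) in deficient libraries, or 25% of wildtype. The wildtype libraries lay between 91.5 and 102 CPM and the deficient libraries between 22.3 and 25.3 CPM. A two-sided exact permutation test over 70 assignments gave p = 0.0286, the smallest it can give. Total counts per library were 8275769 to 18917152 in experiment 1 and 23059998 to 28838553 in experiment 2. Of 12 fibroblast markers, Vim (2946 CPM), Fn1 (1241 CPM), S100a4 (62.2 CPM) and Pdgfra (39.3 CPM) were present in wildtype, whereas Col1a1 (0.0403 CPM), Col1a2 (0.0783 CPM) and Thy1 (0.0288 CPM) were near 0. The summed level of the 12 was 4151 to 4416 CPM in wildtype and 3863 to 4170 CPM in deficient libraries, most of it from Vim. Vim was the 1 marker with a higher mean in deficient cells (3325 CPM), and the other 11 had lower means, among them Fn1 (638 CPM), S100a4 (43.8 CPM) and Pdgfra (30.0 CPM). Also among the 11, Pdgfrb went from 6.67 to 1.36 CPM, Dcn from 5.47 to 2.88 CPM and Col3a1 from 1.56 to 0.266 CPM. The summed level of 15 T lymphocyte markers was 29.2 to 32.1 CPM in wildtype and 22.8 to 27.8 CPM in deficient libraries, nearly all of it from Tcf7, Lat and Cd28, while Cd2, Cd3e, Cd3g, Cd5 and Zap70 had no count in any library of either genotype. Control phagocytes of the first experiment, which met no targets, had Tcf7, Lat and Cd28 at 24.1, 11.2 and 1.32 CPM. The targets were human and the genes counted are hamster genes, so the sum need not follow the amount of target RNA. Whether these markers bear on the 40 genes was not tested.

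**Figure D1:**
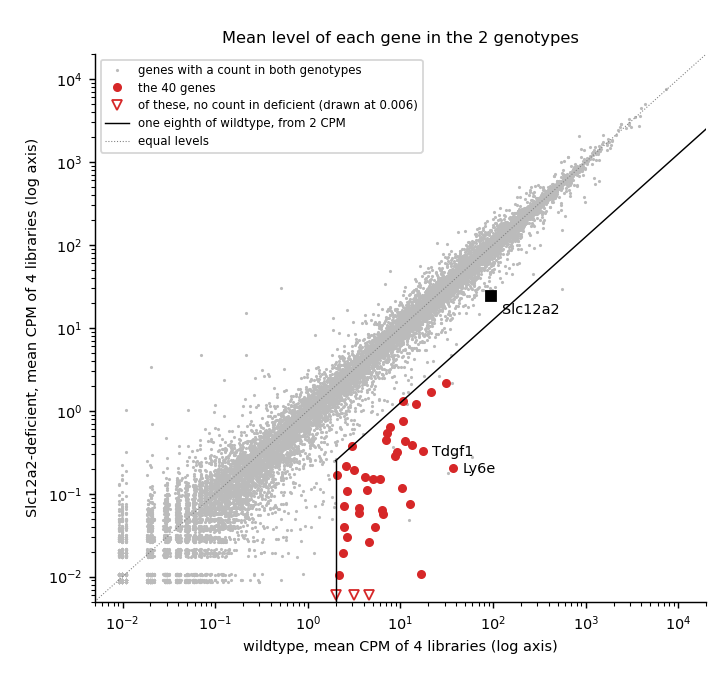
Mean level of each gene in the wildtype (horizontal axis) and Slc12a2-deficient (vertical axis) sorted libraries, in CPM on log axes, with 4 libraries per mean. Red points are the 40 genes, triangles are 3 of them without a count in deficient cells, and grey points below the black line from 2 CPM are genes left out by name. Slc12a2, at 25% of wildtype, lies above the line.

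Summed over the 40 genes, the 4 wildtype libraries held 310, 322, 350 and 346 CPM and the 4 deficient libraries 14.2, 13.8, 11.4 and 12.6 CPM. Wildtype means ran from 2.01 to 37.1 CPM with a median of 5.67 CPM. At these levels the set is one of low expression, with 12 genes at 10 CPM or more and 18 under 5 CPM. The deficient mean was between 0% and 12.3% of the wildtype mean, with a median of 2.70%. In 18 genes it was 2% or less, and in 4 it was still 1 CPM or more (LOC103162635, LOC100767397, Acsl6 and Ptpn3). The coefficient of variation over the wildtype libraries was 1.17% to 24.3%, with a median of 10.5%. In bulk libraries, fewer cells that express a gene and less RNA per cell cannot be told apart.

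Of the 40 genes, 24 carried a symbol in the files and 16 an identifier only. The RefSeq gene table matched 35, of which 31 were protein coding and 4 long non-coding RNAs, and it gave symbols to 3 of the identifiers, LOC100764639 (Epop), LOC100765244 (Cfap206) and LOC100756710 (CUNH9orf116). Epop and Cfap206 are called by these names here, and all other names are those of the files. Genes with a symbol that are not among the 15 at the highest wildtype level were picked for the text after their values were seen.

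Among the surface proteins, Ly6e measured 34.9, 35.4, 38.9 and 39.1 CPM in wildtype, against 0.167, 0.217, 0.139 and 0.301 CPM in deficient libraries. Its mean of 37.1 ± 2.22 CPM (SD, n = 4) was the highest of the set, and the deficient mean of 0.206 ± 0.0709 CPM (SD, n = 4) was 0.555% of it, a ratio of 180. All deficient libraries lay far below every wildtype library. Per kilobase of exon, which allows genes to be compared, the wildtype level of Ly6e was 20.9 CPM, next in the set after LOC100763213 (50.9 CPM) and LOC103161581 (39.1 CPM), whose exon lengths in the files are only 252 and 224 bases. The files place Ly6e on the plus strand of scaffold NW_003616333.1, from base 106355 to 111338, in a genome build that these sources do not name.

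Tdgf1 measured 15.7, 17, 18.9 and 19 CPM in wildtype and 0.126, 0.362, 0.312 and 0.515 CPM in deficient libraries. The means were 17.6 ± 1.57 and 0.329 ± 0.161 CPM (SD, n = 4), a ratio of 53.7. The other surface protein with a GPI anchor, Ntng1 (netrin G1, a guide of nerve fibres), was near the lower limit of the set, with 2.03, 2.08, 2.10 and 2.44 CPM in wildtype. A single count fell to it in the 4 deficient libraries, which gives a ratio of 224 with a 95% counting interval of 39.9 to 8907.

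Receptors were a further group. Il7r, the receptor chain for interleukin 7 that lymphocytes need to survive, measured 5.40, 5.72, 6.27 and 6.53 CPM in wildtype and 0.126, 0.181, 0.208 and 0.0859 CPM in deficient libraries, or 2.51% of wildtype. Tshr, the receptor of thyroid-stimulating hormone, measured 2.93, 2.34, 2.29 and 2.40 CPM in wildtype and 0.126, 0, 0.0694 and 0.0859 CPM in deficient libraries. Npy1r, a receptor of neuropeptide Y, measured 1.96, 2.39, 2.66 and 2.95 CPM and 0.0419, 0.0723, 0 and 0.0429 CPM. The wildtype mean was 5.98 CPM for Il7r and 2.49 CPM for both Tshr and Npy1r, and all 3 receptors were under 3% of wildtype in deficient cells.

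Calcrl, the receptor of calcitonin gene-related peptide and adrenomedullin, kept a larger remainder, with 2.50, 2.04, 1.66 and 2.01 CPM in wildtype and 0.293, 0.0723, 0.173 and 0.129 CPM in deficient libraries, or 8.13%. Plxdc1, a surface protein first described on tumour vessels, had 7.25 ± 0.352 CPM in wildtype and 0.547 ± 0.0895 CPM in deficient cells (SD, n = 4). Il1rapl2, of the interleukin 1 receptor family, had 2.68 ± 0.537 CPM (SD, n = 4) in wildtype and 3 counts in all in deficient libraries, a ratio of 93.3 with a counting interval of 31.6 to 455. The interval covers counting error only.

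No count at all was found in the deficient libraries for 3 genes. Clec11a, a secreted growth factor with a lectin domain, measured 2.97, 4.81, 5.09 and 5.31 CPM in wildtype, and a floor of 3 counts over the group makes it at least 157-fold higher there. Dio2, the deiodinase that turns the prohormone thyroxine into active thyroid hormone, measured 2.70, 2.43, 4.13 and 3.5 CPM and was at least 110-fold higher. Clstn2, a calsyntenin of the neuronal surface, measured 2.19, 1.82, 1.92 and 2.12 CPM and was at least 69.6-fold higher. These bounds rest on the floor of 3 counts, and the lower ends of the two-sided 95% counting intervals, as given for the genes with 1 to 3 counts, are 127 for Clec11a, 90.1 for Dio2 and 56.2 for Clstn2. All 3 were low in wildtype, so the size of these bounds follows the wildtype level.

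Among enzymes and proteins inside the cell, Acsl6, which joins long-chain fatty acids to coenzyme A, had 14.6 ± 1.47 CPM in wildtype and 1.21 ± 0.162 CPM in deficient cells (SD, n = 4), or 8.32%. Fabp4, a fatty acid carrier typical of adipocytes and macrophages, had 10.7 ± 0.511 and 0.746 ± 0.213 CPM (SD, n = 4), or 6.98%. Ptpn3, a tyrosine phosphatase of the cell cortex, had 10.7 ± 2.46 and 1.31 ± 0.278 CPM (SD, n = 4), or 12.2%, close to the limit of the rule. Sumo3, one of the small modifiers attached to proteins, had 7.02 ± 0.923 and 0.448 ± 0.069 CPM (SD, n = 4), and its close relatives make its counts uncertain where reads were shared.

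Zyg11a, of a family of ubiquitin ligase adaptors, had 11.1 ± 1.07 and 0.432 ± 0.0681 CPM (SD, n = 4). Pik3cg, the catalytic subunit of phosphoinositide 3-kinase gamma that leukocytes use, had 4.16 ± 0.771 and 0.160 ± 0.123 CPM (SD, n = 4). Prr5, a component of the mTOR kinase complex that acts on AKT, had 3.59 ± 0.566 and 0.0671 ± 0.0172 CPM (SD, n = 4). Epop, a protein that binds Polycomb repressive complexes, had 3.54 ± 0.511 and 0.0590 ± 0.0481 CPM (SD, n = 4). The last 2 were under 2% of wildtype, unlike Acsl6, Fabp4, Ptpn3 and Sumo3, which were each above 6%.

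Crnn and Rptn, proteins of the outer epidermis that lie in the same gene cluster, were at 0.734% and 0.811% of wildtype. Crnn measured 4.34, 5.42, 5.24 and 6.41 CPM in wildtype and 0.0419, 0.0723, 0 and 0.0429 CPM in deficient libraries. Rptn had 2.39 ± 0.218 CPM (SD, n = 4) in wildtype and 2 counts in all in deficient libraries, a ratio of 125 with a counting interval of 34.1 to 1034. Lrrc2, a protein of leucine-rich repeats, measured 5.12, 6.24, 7.23 and 7.31 CPM in wildtype and 0, 0.0362, 0.104 and 0.0859 CPM in deficient libraries, a ratio of 115. Vopp1, a membrane protein of lysosomes and late endosomes, had 4.54 ± 0.490 CPM (SD, n = 4) in wildtype and 3 counts in all, a ratio of 157 with a counting interval of 53.4 to 765. Ccdc13, a coiled-coil protein of the centrosome, was at 3.04% of wildtype, and Cfap206, a protein of motile cilia, at 8.22%.

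Among genes known by identifier, LOC103159201 stood out by its ratio, with 14.6, 17.6, 17.5 and 16.7 CPM in wildtype and 1 count in all in deficient libraries, a ratio of 1720 with a counting interval of 308 to 67981. LOC103162635, a long non-coding RNA, was the second most abundant of the 40 by CPM, at 30.9 ± 0.734 CPM in wildtype and 2.18 ± 0.144 CPM in deficient cells (SD, n = 4). The other 3 long non-coding RNAs, LOC103163630, LOC103158925 and LOC103163356, had wildtype means of 13.3, 10.3 and 9.27 CPM and stood at 2.91%, 1.15% and 3.42% of those in deficient cells. LOC100767397 had 21.4 ± 1.61 and 1.66 ± 0.547 CPM (SD, n = 4). LOC100763213 and LOC100767391 were at 0.583% and 1.02% of wildtype. The other 6, LOC103161581, LOC100756710, LOC103162409, LOC100767707, LOC100768367 and LOC100751364, were between 2.59% and 12.3%.

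**Figure D2:**
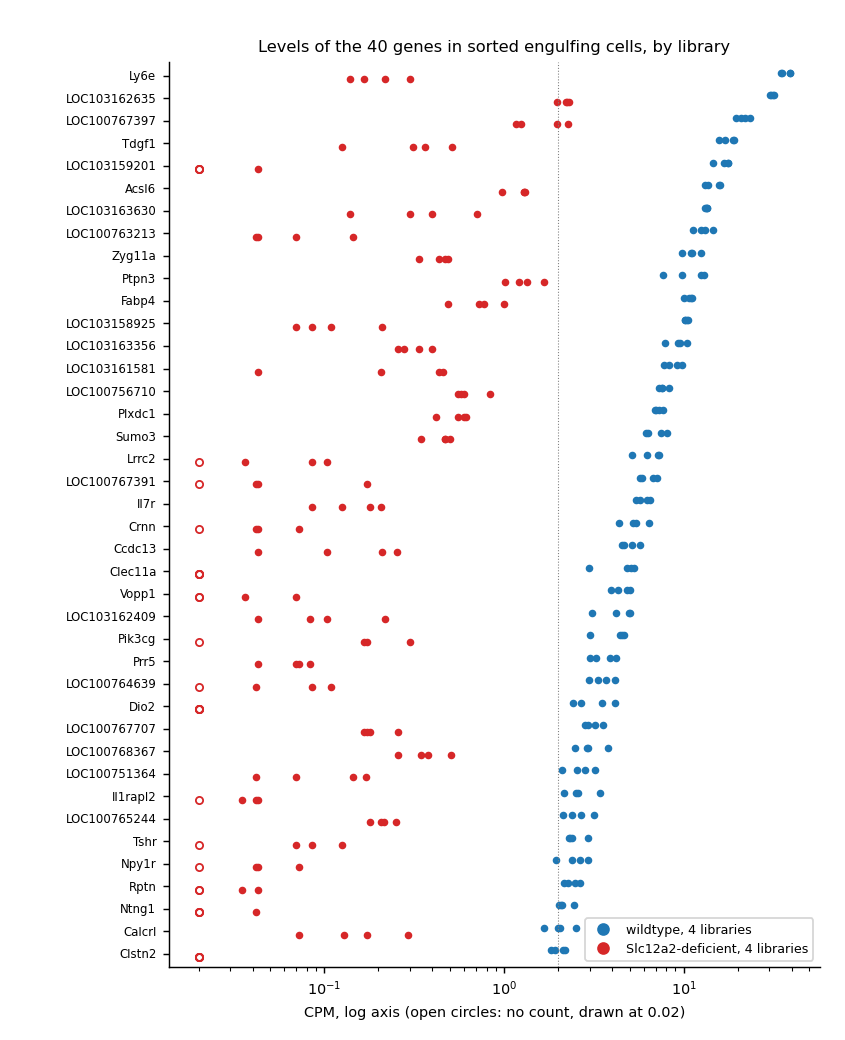
Level of each of the 40 genes in each of the 8 sorted libraries, in CPM on a log axis, ordered by wildtype mean, with open circles for libraries without a count and a dotted line at the rule's 2 CPM. No deficient library reached any wildtype library of the same gene, which the rule nearly fixes.

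The rule's limits cut through a continuous range. Just inside the ratio were LOC100768367 (12.3%), Ptpn3 (12.2%), LOC100756710 (8.35%) and Acsl6 (8.32%), and just outside were LOC103160203 (13.0%), Fgd5 (13.1%), LOC103163538 (13.2%) and Sbsn (13.9%). Fgd5 was nearly as abundant as Ly6e in wildtype, at 35.6 CPM, and kept 4.67 CPM in deficient cells. Just inside the level were Clstn2 (2.01 CPM) and Calcrl (2.05 CPM), and just outside LOC103159926 (1.99 CPM) and LOC100770196 (1.90 CPM).

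The genes were spread over 36 scaffolds, and 8 of them shared a scaffold with another, as 4 pairs. Tdgf1, on the minus strand of scaffold NW_003614270.1 from base 174491 to 181688, and Lrrc2, on the plus strand from base 191912 to 211655, were next to each other, 10224 bases apart, with no gene between them. They had no base in common in the files' gene models. Als2cl, which lies on the far side of Tdgf1, had 27.8 CPM in wildtype and 44.0 CPM in deficient cells. Rptn and Crnn were 166838 bases apart with 3 genes between them, none of which reached 2 CPM in wildtype. Dio2 and Tshr were 585121 bases apart, and Cep128, which lies between them, had 34.8 CPM in wildtype and 29.4 CPM in deficient cells. Epop and Plxdc1 were 281312 bases apart, and 8 of the 11 genes between them reached 2 CPM in wildtype, among them Mllt6 (47.1 CPM in wildtype, 39.2 CPM in deficient) and Cisd3 (94.1 and 115 CPM).

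Within 2 positions on either side on the same scaffold, 24 of the 40 genes had at least 1 neighbour that reached 2 CPM in wildtype and was not itself in the set, 39 neighbours in all. Their deficient mean was a median of 95% of wildtype, beside 98.4% for all 11070 genes of at least 2 CPM. Between 80% and 125% of wildtype lay 27 of the 39 neighbours (69.2%), beside 77.1% of all such genes. Zyg11b, next to Zyg11a, had 34.9 CPM in wildtype and 33.2 CPM in deficient cells, Ube2g2, next to Sumo3, had 59.2 and 64.6 CPM, and Tfpi, next to Calcrl, had 147 and 159 CPM. Below 50% of wildtype lay 3 of the 39 neighbours, LOC103158589 (14.3%), Asb15 (40.1%) and LOC103161538 (43.0%). The share of all such genes below 50% was not counted. LOC103158589 lies 1095 bases from LOC100767397 on the same strand and had 18.2 CPM in wildtype and 2.61 CPM in deficient cells. Neighbours under 2 CPM in wildtype are not among the 39, and some of them were far lower in deficient cells while others were not. Echdc2, 66 bases from Zyg11a, had 0.773 CPM in wildtype and 0.0173 CPM in deficient cells. LOC103163886, whose span overlaps that of Ccdc13, had 0.834 and 0.0372 CPM. LOC103161874, next to Pik3cg, had 1.33 and 0.286 CPM. Without a count in deficient cells were, among others, LOC103163179 (0.490 CPM in wildtype), Khdrbs2 (0.370), LOC103162667 (0.339), Flg2 (0.292) and LOC100767189 (0.266). Fbxo47, next to Plxdc1, had 1.75 and 1.86 CPM, and LOC103161713, next to Rptn, had 1.11 and 1.13 CPM. Higher in deficient cells were, among others, Ston2 (0.610 and 1.21 CPM) and Prlr (0.351 and 0.715 CPM). How often genes at such levels differ this much was not counted. The span of Asb15 overlaps that of LOC103163630 on the other strand, as LOC100765709, Gpsm2 and Mrps2 overlap Ptpn3, LOC100767707 and LOC100756710. These overlaps are of whole gene spans, and shared exon bases are not shown here. Where exons do overlap, counting without strand cannot tell the reads of such partners apart.

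**Figure D3:**
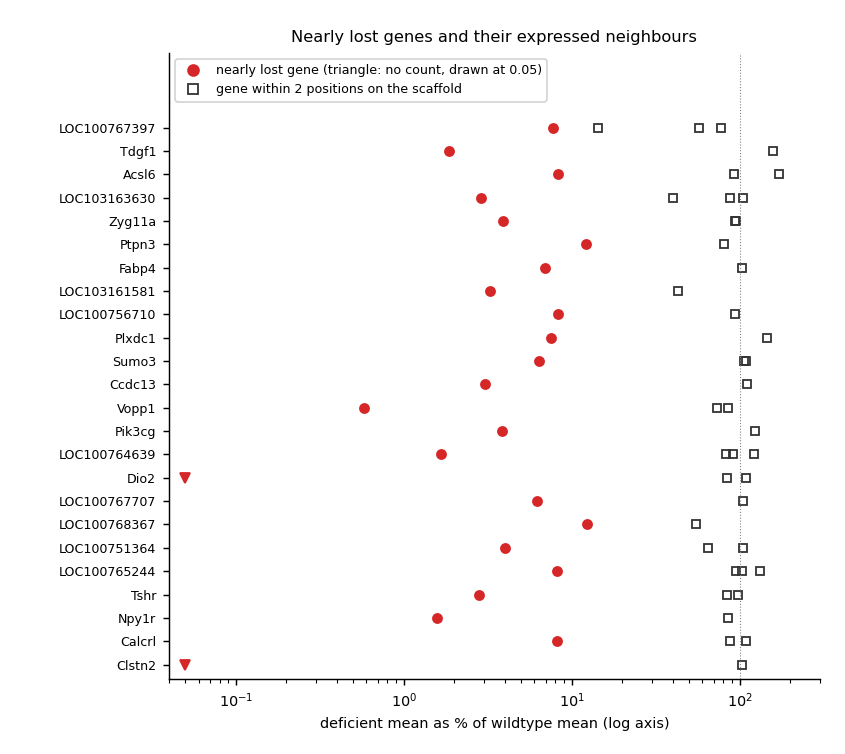
Deficient mean as a percent of the wildtype mean, on a log axis, for the 24 genes with an expressed neighbour (red) and for their 39 neighbours (squares), with a dotted line at equal levels. The neighbours have a median of 95%, and the lowest square is LOC103158589 at 14.3%.

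The 2 experiments were counted separately and differed in sorting and depth, so their levels are set side by side without a test. In the first experiment, whose phagocytes are not labelled as deficient, the summed level of the 40 genes was 95.5 to 101 CPM in control libraries, 103 to 113 CPM with cytochalasin D, 118 to 120 CPM with apoptotic cells and 96.4 to 111 CPM with both. These sums lie between those of the deficient and the wildtype sorted libraries. The control mean lay between the 2 genotype means for 35 of the 40 genes, at or below the deficient mean for 4, and at or above the wildtype mean for 1, LOC100767397. For 36 genes all 16 libraries of the first experiment lay below the lowest wildtype sorted library, and for 25 genes all 16 lay above the highest deficient library. These counts were made for the 40 genes only and not over all genes, so they are not read as a trait of the set. The control mean was a median of 24% of the sorted wildtype mean over the 40 genes, and 103% over all genes of at least 2 CPM in wildtype. With apoptotic cells, the treatment nearest to that of the sorted cells, the medians were 26.3% and 103%. Unsorted and sorted cells, and the experiments as such, cannot be told apart in this comparison. The rule also took genes for being high in the sorted wildtype and low in the deficient libraries. Levels between the 2 are therefore favoured by the choice of the 40 genes, whereas all genes were not chosen on such a ratio.

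Ly6e had 14.3 ± 1.37 CPM in control, 14.7 ± 2.72 CPM with cytochalasin D, 16.1 ± 0.957 CPM with apoptotic cells and 14.2 ± 0.979 CPM with both (SD, n = 4), so the 4 groups overlapped and all lay between the 2 genotypes. Tdgf1 had 2.44 ± 1.14, 2.73 ± 0.511, 2.48 ± 0.651 and 3.34 ± 0.771 CPM in the same order (SD, n = 4), which is 13.8% of sorted wildtype in control. Lrrc2, its neighbour, had 0.706 ± 0.445 CPM in control (SD, n = 4), or 10.9% of sorted wildtype. Acsl6 and Fabp4 had 5.75 ± 0.503 and 5.03 ± 0.775 CPM in control (SD, n = 4), or 39.4% and 47.0%. In control libraries 14 of the 40 genes had at least 2 CPM, 18 had under 1 CPM, and Calcrl, Il1rapl2 and Ntng1 had no count.

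**Figure D4:**
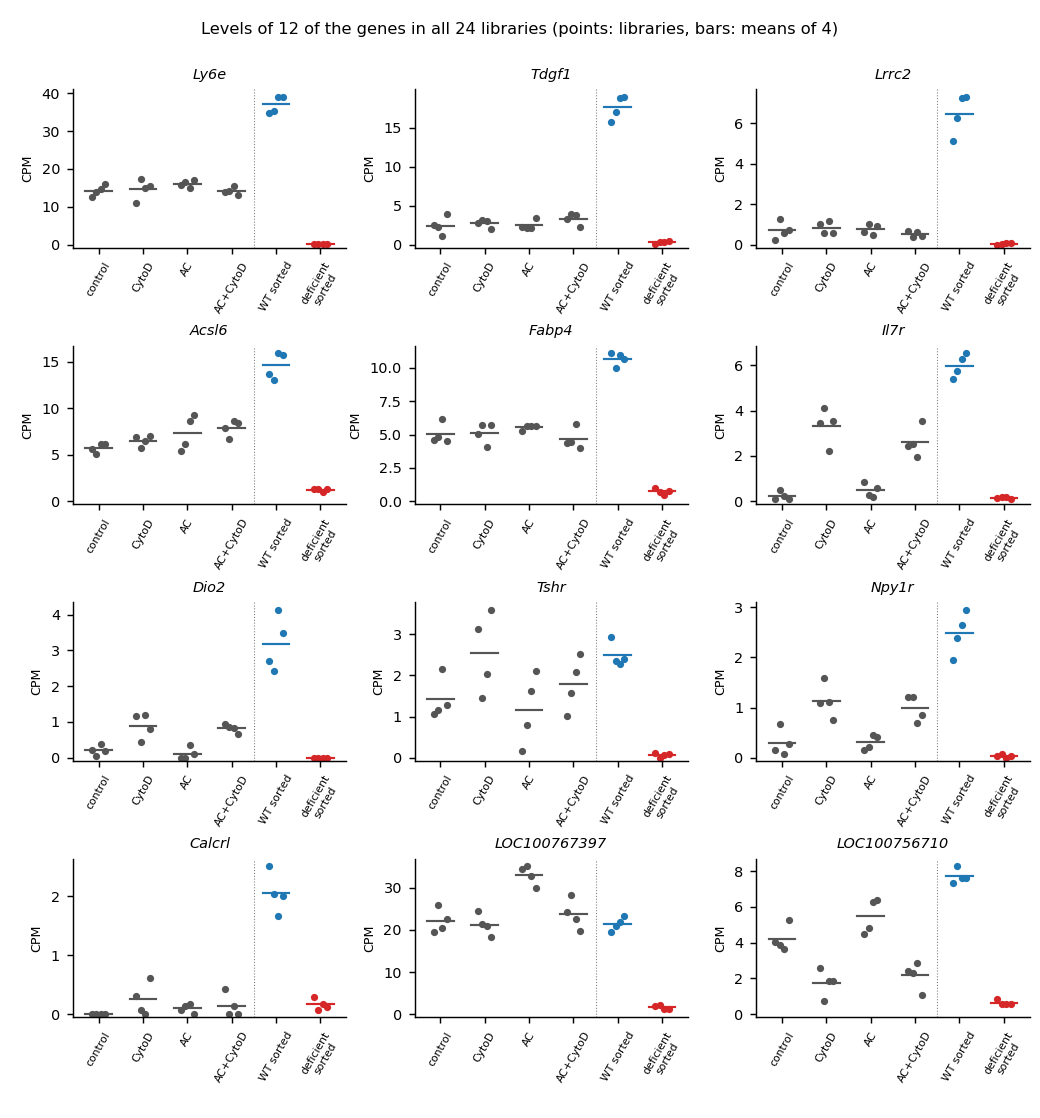
Levels of 12 of the genes in all 24 libraries, in CPM on linear axes starting near 0, with points for libraries and bars for means of 4; AC stands for apoptotic cells, CytoD for cytochalasin D, and the dotted line parts the 2 experiments. Ly6e and Tdgf1 sit at one level in the 4 unsorted groups, between the genotypes, while Il7r, Dio2 and Npy1r have higher means in both groups with cytochalasin D than in the other unsorted groups.

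The treatments of the first experiment were tested, since its libraries took no part in choosing the genes. The fit covered 13106 genes, and 35 of the 40 passed its filter on low counts; Calcrl, Il1rapl2, LOC103161581, LOC103162409 and Ntng1 did not. The control libraries serve in both the comparison with apoptotic cells and that with cytochalasin D, so these share their baseline, as do the comparisons that use the cytochalasin D libraries. A gene was called at an edgeR adjusted p under 0.05 over all genes tested. Numbers at an unadjusted p under 0.05 are given for the 35 genes only. Over all genes that share is at least the share called, because adjustment never lowers a p-value.

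Cytochalasin D alone against control changed 4 of the 35 genes, 3 higher and 1 lower, where 26.3% of all genes tested were called (13.5% higher and 12.8% lower). The share among the 35 is below that background. However, the median standard error of this log2 change was 0.33 over the 35 genes and 0.09 over all genes tested. Smaller changes were thus less detectable in these genes, and the lower share is not read as a trait of them. The receptor Il7r measured 0.107, 0.491, 0.223 and 0.0909 CPM in control and 3.44, 4.12, 2.23 and 3.53 CPM with cytochalasin D. The groups did not overlap, and cytochalasin D raised it by 3.82 on the log2 scale (SE 0.44, edgeR adjusted p = 4.65e-07). With both cytochalasin D and apoptotic cells Il7r stayed at 2.43, 2.54, 1.94 and 3.54 CPM, and with apoptotic cells alone it was 0.868, 0.291, 0.174 and 0.585 CPM. The 8 libraries with cytochalasin D were therefore all above the 8 without it, yet below the sorted wildtype libraries. The 15 T lymphocyte markers summed to 35.1 to 38.0 CPM in control and 30.7 to 36.5 CPM with cytochalasin D. Of the 15, 10 had no count with cytochalasin D, Cd2, Cd3d, Cd3e and Cd5 among them, and 9 had none in control. The means of 5 were lower with cytochalasin D and those of 3 were higher, namely Lat (11.2 to 12.7 CPM), Cd247 (0 to 0.0523 CPM) and Lef1 (0 to 0.0174 CPM). Their part in the level of Il7r was not tested.

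Dio2 measured 0.214, 0.0614, 0.372 and 0.182 CPM in control and 1.17, 0.434, 1.19 and 0.805 CPM with cytochalasin D, a log2 fold change of 2.14 (SE 0.57, edgeR adjusted p = 0.00696). Npy1r measured 0.161, 0.675, 0.0745 and 0.273 CPM in control and 1.10, 1.59, 1.12 and 0.744 CPM with cytochalasin D, a log2 fold change of 1.92 (SE 0.48, edgeR adjusted p = 0.00440). Neither gene's groups overlapped, and both genes rest on few counts per library. The hormone receptor Tshr, on the scaffold of Dio2, had a log2 fold change of 0.91 (SE 0.43) that did not pass (edgeR adjusted p = 0.127).

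LOC100756710 (CUNH9orf116) was the gene that fell with cytochalasin D. It measured 4.02, 3.87, 3.65 and 5.27 CPM in control and 2.58, 0.723, 1.88 and 1.86 CPM with cytochalasin D, a log2 fold change of -1.20 (SE 0.28, edgeR adjusted p = 0.00256). The groups did not overlap. Its span overlaps that of Mrps2 on the other strand, with the limit given above. Over the 35 genes the median log2 fold change was 0.22, beside 0.01 over all genes tested, and 8 of the 35 had an unadjusted p under 0.05. Over all genes tested that share was at least the 26.3% called.

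Apoptotic cells against control changed 1 of the 35 genes, where 13.7% of all genes tested were called (6.97% higher and 6.68% lower). LOC100767397 measured 19.4, 26.0, 20.3 and 22.6 CPM in control and 34.3, 35.1, 32.8 and 30.0 CPM with apoptotic cells, a log2 fold change of 0.59 (SE 0.11, edgeR adjusted p = 0.000745). The groups did not overlap, and the levels with apoptotic cells were above all sorted wildtype libraries, which lay between 19.6 and 23.3 CPM. Under cytochalasin D its log2 change with apoptotic cells was 0.16 (SE 0.11, edgeR adjusted p = 0.425), and the difference between the 2 effects, -0.43 (SE 0.16), did not pass (edgeR adjusted p = 0.108). The summed T lymphocyte markers were 35.1 to 38.0 CPM in control and 42.9 to 45.4 CPM with apoptotic cells, and Lck and Zap70 went from means of 0.0268 and 0.0134 CPM to 3.23 and 3.37 CPM. Their part in this result was not tested. With cytochalasin D and apoptotic cells, where these markers summed to 40.6 to 45.2 CPM, LOC100767397 measured 24.2, 28.3, 22.6 and 19.8 CPM.

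Ly6e had a log2 change with apoptotic cells of 0.19 (SE 0.11, approximate 95% interval -0.03 to 0.42, edgeR adjusted p = 0.285). Tdgf1 had 0.07 (SE 0.29, interval -0.50 to 0.64, edgeR adjusted p = 0.912). Both intervals lay within 1 log2 unit of 0. Over the 35 genes the median log2 change was 0.16, beside 0.00 over all genes, and 4 had an unadjusted p under 0.05, namely LOC100767397, Rptn, Acsl6 and LOC103162635. Over all genes tested the share at that limit was at least the 13.7% called. Acsl6 had 0.39 (SE 0.16) and Rptn 1.14 (SE 0.49), and neither passed over all genes (edgeR adjusted p = 0.109 and 0.132).

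In the presence of cytochalasin D, apoptotic cells changed 0 of the 35 genes by edgeR, with 2 at an unadjusted p under 0.05, where 8.61% of all genes tested were called (4.82% higher and 3.79% lower). DESeq2 called 1, the long non-coding RNA LOC103158925. It measured lower with both agents, at 2.00 ± 0.742 CPM, than with cytochalasin D alone, at 3.66 ± 1.04 CPM (SD, n = 4), and its edgeR log2 change was -0.91 (SE 0.32, adjusted p = 0.0768). The interaction of apoptotic cells and cytochalasin D passed in 0 of the 35 genes by edgeR and 0 by DESeq2, with 4 at an unadjusted p under 0.05 by edgeR, where 4.56% of all genes were called (3.03% higher and 1.53% lower). The median standard error of the log2 change with apoptotic cells was 0.33 over the 35 genes and 0.09 over all genes tested, so smaller changes were less detectable in these genes at this depth.

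**Figure D5:**
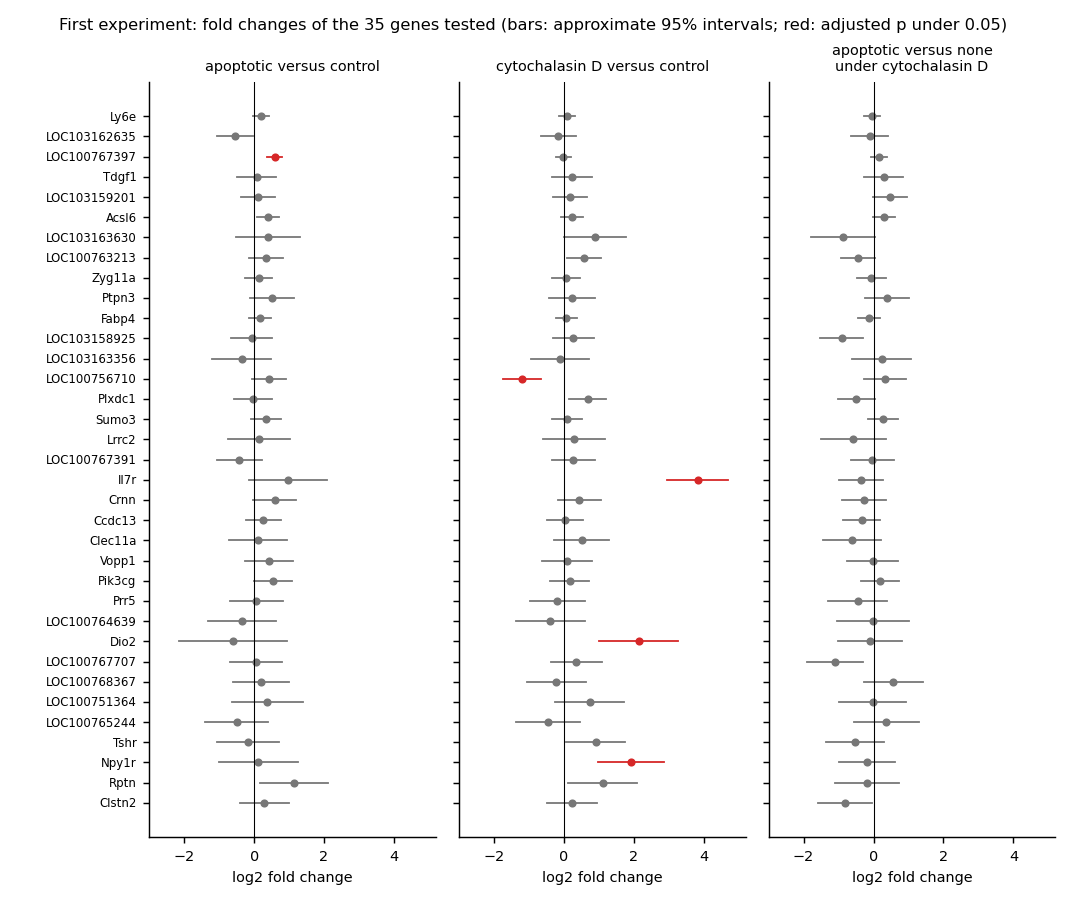
Log2 fold changes of the 35 genes tested in 3 comparisons of the first experiment, with bars for approximate 95% intervals and red for an edgeR adjusted p under 0.05. LOC100767397 is red with apoptotic cells (0.59), and Il7r (3.82), Dio2 (2.14), Npy1r (1.92) and LOC100756710 (-1.20) with cytochalasin D.

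Other genes of the same families and pathways were tested between the genotypes, where 42.5% of all 13050 genes tested were called (21.1% higher in deficient cells and 21.3% lower). Of the LY6 and uPAR family, 3 genes beside Ly6e were tested and 1 fell, Plaur, the urokinase receptor, from 28.5 ± 1.18 to 20.1 ± 2.14 CPM (SD, n = 4; log2 fold change -0.48, SE 0.08, edgeR adjusted p = 0.000105). Of NODAL, CRIPTO and activin signalling, 12 genes beside Tdgf1 were tested, 1 rose and 3 fell. Smad3, a signal carrier of activin and TGF-beta receptors, fell from 140 ± 6.75 to 78.4 ± 8.16 CPM (SD, n = 4; log2 fold change -0.81, SE 0.06, edgeR adjusted p = 3.48e-08). Smad2, the other such carrier, rose by a log2 fold change of 0.15. Hspa5 and Gpc1, a chaperone and a proteoglycan that bind CRIPTO, changed by log2 fold changes of -0.37 and -0.25. Of 28 genes that make or release the GPI anchor, 7 rose and 6 fell, with a median log2 fold change of 0.03 beside 0.00 over all genes. Pgap1, which remodels the anchor, rose by a log2 fold change of 0.59. Gpld1, which cuts the anchor, was low in both genotypes and fell from 1.08 ± 0.331 to 0.400 ± 0.124 CPM (SD, n = 4). Its log2 fold change was -1.41 (SE 0.29).

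Among 38 genes of the machinery that silences genes by DNA methylation and histone marks, 18 rose and 3 fell, with a median log2 fold change of 0.13. Of all genes tested, 21.1% were called higher in deficient cells and 21.3% lower. Many of the called rises were small, such as those of Rbbp4 (log2 fold change 0.13, SE 0.04) and Suv39h2 (0.14, SE 0.05). Suz12, a core subunit of Polycomb repressive complex 2, rose from 64.1 ± 5.34 to 134 ± 6.74 CPM (SD, n = 4; log2 fold change 1.09, SE 0.06, edgeR adjusted p = 8.03e-10). Uhrf1, which guides maintenance methylation, rose by a log2 fold change of 0.61 and Cbx7, a Polycomb reader, by 0.56. Kdm6b, an eraser of the Polycomb mark, changed by a log2 fold change of -0.70, and Dnmt3a, a writer of new DNA methylation, by -0.39. Of 8 imprinted genes tested, 3 rose and 1, Igf2r, fell, too few to read as a trait of the list.

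Of 17 interferon response genes, 4 rose and 5 fell, beside 21.1% and 21.3% of all genes tested. At this size of list, these counts are not read as a trait of it. Irf1, a transcription factor, rose from 7.73 ± 1.03 to 18 ± 3.26 CPM (SD, n = 4; log2 fold change 1.25, SE 0.12, edgeR adjusted p = 5.92e-07), and Bst2, a surface protein that is also held by a GPI anchor, rose by a log2 fold change of 0.41. Usp18, which removes the modifier ISG15, fell from 1.79 ± 0.293 to 0.328 ± 0.0669 CPM (SD, n = 4; log2 fold change -2.41, SE 0.23, edgeR adjusted p = 6.43e-07). The list held called genes in both directions, and its median log2 fold change was -0.14. Whether any of these genes bears on the 40 was not tested.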

How the data were processed

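RNA of 24 libraries was read as 75 base pairs, paired-end, per the labels' protocols. The authors deposited raw counts per gene name, made with featureCounts 1.5.0 from STAR alignments over exons with both ends aligned and no strand option, per the file headers; neither the genome build nor the STAR version is given in the sources used here. FastQC and DESeq2 are also named in the submitters' processing notes. A row without a gene name held 0.0249% to 0.0445% of counts in the first experiment and 1.13% to 1.65% in the second; it stayed in the column totals of the rule and out of the fits.

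The members and gene lists were chosen with earlier results of these data known. CPM was computed from column totals. Each experiment was fitted with edgeR 4.0.16 in R 4.3.3 (TMM factors, filterByExpr, quasi-likelihood F test on group, Benjamini-Hochberg adjustment over all genes tested, threshold 0.05), with all 16 libraries in the first. The scripts were tested on simulated data. Biological coefficients of variation were 7.04% and 6.06%. Replicates of every group differed by more than counting noise (chi-square per degree of freedom of at least 1.84). Nothing in the labels ties replicates to separate cultures beyond the word biological, so p-values measure the spread between these libraries. Genes were named by a rule of markers, the 15 highest symbols, lowest ratios, limits of the rule, called genes and neighbours, plus others picked after their values were seen. Intervals are exact binomial at 95% for ratios and cover counting error only. Of 26776 gene names, 22328 matched the RefSeq table by symbol, synonym or identifier, which gave names and no coordinates. Gene order came from the files. Alternatives were DESeq2 1.42.0, relative log expression factors, other filters, a replicate block, each library left out, and other limits of the rule.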

Additional observations from a re-analysis of the deposited data

Results flagged for a closer look

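Among 141 groups of 4 libraries in which one of the 40 genes had a mean of at least 1 CPM, 12 held a library far from the other 3 by Dixon's criterion, and chance gives about 1 in 20 groups. In sorted cells, Acsl6 was 0.971 CPM in deficient library 3 (others 1.29 to 1.30), Pik3cg 3.01 CPM in wildtype library 1 (others 4.43 to 4.68) and LOC103163630 13.1 CPM in wildtype library 4 (others 13.38 to 13.43). With apoptotic cells, Tdgf1 was 3.45 CPM in library 4 (others 2.08 to 2.29), LOC103159201 4.00 CPM in library 2 (others 2.61 to 2.81) and Fabp4 5.29 CPM in library 1 (others 5.61 to 5.67). In control, Fabp4 was 6.18 CPM in library 3 (others 4.54 to 4.79), while in library 4 Plxdc1 was 1.73 CPM (others 2.62 to 2.75) and Prr5 0.636 CPM (others 1.56 to 1.66). With cytochalasin D, LOC103158925 was 5.21 CPM in library 2 (others 3.04 to 3.35) and LOC103163356 1.80 CPM in library 4 (others 0.838 to 0.868). With both agents, LOC103162635 was 1.26 CPM in library 4 (others 2.38 to 2.57). No cause of these values was tested.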

How the results depend on the processing

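Of the 40 genes, the rule kept 22 at a wildtype mean of at least 5 CPM and took in 82 where the share of wildtype allowed was 2 times as high. With 1 library left out it took in 38 to 42 genes, 37 to 40 of them shared with the 40, and Ptpn3, LOC100768367, Clstn2 and Calcrl were the genes that left it. With the row that has no gene name left out of the totals, an alternative chosen after seeing the data, it took in 41. The count of genes changed by apoptotic cells was 1 to 2 with 1 library left out: without apoptotic replicate 1 Acsl6 was added, and without control replicate 1 Rptn. Under cytochalasin D it was 1 with no filter and 1 with DESeq2, LOC103158925 in both. The difference between effects gave 0 to 1 with 1 library left out, the 1 being LOC100767397 without control replicate 2 or without cytochalasin D replicate 4. The 5 called genes kept their calls in every alternative run, with log2 fold changes of 3.52 to 4.54 for Il7r, 1.83 to 2.54 for Dio2, 1.63 to 2.78 for Npy1r, -1.43 to -0.95 for LOC100756710 and 0.52 to 0.69 for LOC100767397; Dio2 had no fit where 1 CPM in 4 libraries was asked. The replicate block gave 1, 4, 0 and 0 genes in the 4 comparisons, as without it. Same-numbered libraries of the first experiment had correlations of -0.06 to 0.23 (median 0.00), 3 of 24 over 0.1, and 7 of 16 libraries matched their own number best. These values show no clear pairing by number, and they cannot exclude a partial one. In the second experiment no number pairs single libraries, but library numbers run in 2 sets of 4, 9 to 12 and 13 to 16, each with 2 libraries per genotype, and no label calls the sets batches. As alternatives chosen after seeing the data, the rule took in 38 genes within the first set and 47 within the other (38 and 39 shared with the 40), and with the set as a term 98 of 162 other list genes were called between genotypes, beside 88 without it. Depth limits the lowest genes, since 3 counts are 0.159 to 0.363 CPM in a library of the first experiment, and 5 of the 40 were not tested there.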

Other observations

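Gene groups that share no member with the nearly lost genes were also tested between the genotypes, where 42.5% of all 13050 genes were called (21.1% higher in deficient cells and 21.3% lower) and the median log2 fold change was 0.00. Of 26 genes of the extracellular matrix and its turnover, outside the collagens and the genes left out by name, 3 rose in deficient cells and 16 fell, with a median log2 fold change of -0.58. Adamts1, a matrix protease, fell from 126 ± 3.44 to 35.8 ± 2.66 CPM (SD, n = 4; log2 fold change -1.80, SE 0.05, edgeR adjusted p = 7.76e-13). Loxl1, which cross-links elastic fibres, and Fbn1, the fibrillin of microfibrils, changed by log2 fold changes of -1.54 and -1.46. Cyr61, a matrix-bound signalling protein, rose by a log2 fold change of 0.55.

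Of 15 WNT pathway genes tested, 3 rose and 9 fell. Axin2, a feedback target of WNT signals, fell from 7.03 ± 0.647 to 3.08 ± 0.461 CPM (SD, n = 4; log2 fold change -1.16, SE 0.12, edgeR adjusted p = 1.20e-06), while the transcription factor Tcf7l2 rose by a log2 fold change of 0.57. Of 15 HOX genes tested, 3 rose and 2 fell, beside 21.1% and 21.3% of all genes. With so few genes tested, the difference from that share is not read as a trait of the list. Hoxc8 rose from 3.11 ± 0.209 to 11.7 ± 0.969 CPM and Hoxc10 fell from 12.3 ± 1.87 to 6.0 ± 0.814 CPM (SD, n = 4; log2 fold changes 1.93 and -1.02, edgeR adjusted p = 5.17e-10 and 4.21e-06).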
